A study of Homo sapiens with 10 samples.

Results

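ZEB1 occupancy after 24 h of eribulin was compared with that of untreated cells over 52981 consensus sites, using 4 of the 10 samples of the series. The members were all consensus sites of the count table, and 46436 of them had enough counts to be tested, which left 6545 untested. ZEB1 was mapped by CUT&RUN, in which an antibody guides a nuclease to a protein and the released DNA is sequenced, in a line of human breast cancer cells, MDA in the labels, that is negative for the estrogen, progesterone and HER2 receptors. The untreated group was 2 ZEB1 libraries with no drug and no stated time, and the treated group was 2 ZEB1 libraries of cells given 300 nM eribulin for 24 h. The labels name the line MDA_Parental in the untreated group and MDA_ERI in the treated groups, so exposure and line name cannot be told apart. The labels also mention Tn5, which CUT&RUN does not use, and the cell type could not be checked against markers because the assay reads occupancy and not expression. The 2 IgG libraries of the series were not analysed here.

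ZEB1 is a zinc finger transcription factor that drives the epithelial-mesenchymal transition, in which cells lose their junctions and become motile. Its zinc finger clusters bind E-boxes with the letters CAGGTG, or CACCTG on the other strand, and the related CAGGTA, and it recruits corepressors to epithelial genes such as CDH1, which encodes E-cadherin. Eribulin is a drug that blocks the growing ends of microtubules and is used against breast cancer.

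Total counts in the consensus sites were 3561455 and 3146228 in the untreated libraries and 1886419 and 1799143 in the 24 h libraries. The libraries within a condition differed by less than counting noise, with chi-square per degree of freedom of 0.83 in the untreated pair and 0.886 in the 24 h pair, against 8.06 to 8.56 between conditions. Each pair is treated as 1 sample, n = 1 for a condition, and nothing here says how separate cultures vary. The p-values below compare these libraries and not the conditions, and the 95% intervals cover counting error only. Signal is given as CPM, counts scaled to library size with TMM factors, so higher and lower are stated relative to the bulk of sites. A scale set by the background floor of the peak caller lowered each log2 fold change by a median of 0.93, and the share of lower sites among the called rose from 47.7% to 93.2%.

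The promoter windows shown here illustrate a pattern among promoter sites, a lower ZEB1 signal at 24 h where the window holds the CAGGTG E-box. They were picked for their matches and calls, or for their gene, and do not stand for all sites. Promoter sites with CAGGTG made up 177 of the 6282 sites called lower, and sequence outside promoter windows was not analysed. The windows of LCN2 (chr9:128149203-128149452, plus strand), TMEM184A (chr7:1556206-1556455, minus strand), MARK2 (chr11:63888287-63888536, plus strand) and ACTR1B (chr2:97664045-97664294, minus strand) are those with at least 2 matches and the smallest p among sites called lower. The ZEB1 window (chr10:31318966-31319215, plus strand) is that of the gene for the profiled factor itself. Each is the stretch of 250 bases before a transcription start, from RefSeq on GRCh38.p14, and capitals mark CAGGTG or CACCTG.
LCN2: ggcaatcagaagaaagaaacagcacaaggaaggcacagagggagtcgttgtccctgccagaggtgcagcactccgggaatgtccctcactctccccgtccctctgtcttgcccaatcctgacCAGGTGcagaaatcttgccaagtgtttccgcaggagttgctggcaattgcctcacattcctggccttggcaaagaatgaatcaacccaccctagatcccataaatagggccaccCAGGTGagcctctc
TMEM184A: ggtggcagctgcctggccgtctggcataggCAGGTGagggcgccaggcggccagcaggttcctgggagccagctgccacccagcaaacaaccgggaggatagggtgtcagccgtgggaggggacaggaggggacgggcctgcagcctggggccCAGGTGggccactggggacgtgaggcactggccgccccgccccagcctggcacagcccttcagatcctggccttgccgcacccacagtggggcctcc
MARK2: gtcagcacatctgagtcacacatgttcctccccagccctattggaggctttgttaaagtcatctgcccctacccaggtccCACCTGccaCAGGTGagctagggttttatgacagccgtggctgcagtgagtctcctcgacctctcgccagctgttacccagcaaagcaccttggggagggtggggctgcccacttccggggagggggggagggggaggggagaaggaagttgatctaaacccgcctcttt
ACTR1B: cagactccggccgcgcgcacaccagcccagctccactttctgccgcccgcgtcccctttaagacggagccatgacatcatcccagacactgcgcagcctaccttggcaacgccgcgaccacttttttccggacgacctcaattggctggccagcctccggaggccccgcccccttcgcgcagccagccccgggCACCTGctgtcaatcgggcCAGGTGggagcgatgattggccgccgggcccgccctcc
ZEB1: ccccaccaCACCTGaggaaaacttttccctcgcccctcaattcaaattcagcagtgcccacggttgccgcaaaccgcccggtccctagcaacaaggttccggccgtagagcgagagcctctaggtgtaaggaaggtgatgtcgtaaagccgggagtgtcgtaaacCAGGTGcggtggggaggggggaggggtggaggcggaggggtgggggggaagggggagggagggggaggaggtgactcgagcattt

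Windows without a match are shown for contrast: SPATC1L (chr21:46184460-46184709, minus strand), the promoter site with the smallest p among those lower at 24 h, and TARS1 (chr5:33440715-33440964, plus strand) and KLF16 (chr19:1863580-1863829, minus strand), at promoter sites higher at 24 h. No letter is in capitals in them, since neither CAGGTG nor CAGGTA occurs on either strand. The SPATC1L window is a tandem repeat with a unit of 53 bases.
SPATC1L: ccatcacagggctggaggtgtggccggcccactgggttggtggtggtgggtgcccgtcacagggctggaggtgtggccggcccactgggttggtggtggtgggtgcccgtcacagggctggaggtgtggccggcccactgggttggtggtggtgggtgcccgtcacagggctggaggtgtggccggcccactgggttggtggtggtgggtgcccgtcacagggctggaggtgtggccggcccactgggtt
TARS1: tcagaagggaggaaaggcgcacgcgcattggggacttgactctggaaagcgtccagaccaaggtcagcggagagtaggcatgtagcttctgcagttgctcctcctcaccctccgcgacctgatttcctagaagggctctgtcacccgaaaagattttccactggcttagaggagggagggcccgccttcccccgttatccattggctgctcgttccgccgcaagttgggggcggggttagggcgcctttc
KLF16: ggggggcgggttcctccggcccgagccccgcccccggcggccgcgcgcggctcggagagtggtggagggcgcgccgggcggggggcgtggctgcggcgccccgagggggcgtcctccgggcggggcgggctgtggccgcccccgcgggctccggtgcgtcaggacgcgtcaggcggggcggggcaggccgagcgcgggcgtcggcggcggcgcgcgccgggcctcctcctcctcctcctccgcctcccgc

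A site was called when its adjusted p was under 0.05 (edgeR) and its signal differed at least 2-fold. By this rule 6282 sites, 13.5% of those tested, were lower at 24 h and 6893, or 14.8%, were higher, and 71.6% were not called. The median log2 fold change over all tested sites was 0.02. With TMM scaling, calls in the 2 directions were thus of similar number.

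Promoter sites with the ZEB1 E-box were lower at 24 h than promoter sites without it. A total of 7862 tested sites overlapped a window of 300 bases around the start of a protein-coding gene (250 bases before it and 50 after), and each was assigned the window it shared most bases with. Matches were counted over the whole window, including any bases that the site did not cover. CAGGTG, on either strand, occurred in the window of 44.7% of the 396 promoter sites called lower (exact 95% interval 39.7 to 49.7) but of 7.02% of the 784 called higher (5.33 to 9.03). Among promoter sites not called the share was 19.4%, and among all 22131 coding windows used it was 20%. The called lower and called higher sites thus lay on opposite sides of the share found in windows at large.

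The difference held for the whole distribution and not only for called sites. The median log2 fold change was -0.18 over 1528 promoter sites with CAGGTG and 0.25 over 6334 without, and with the background floor as scale the medians were -1.11 and -0.69, so that the sign of the second depends on the scaling. The difference between the medians was -0.424. A change of scale shifts all sites nearly alike and cannot alter this difference, and other tests and filters hardly alter fold changes. With a library left out it was -0.425 to -0.444. Of the sites with CAGGTG, 11.6% were called lower and 3.6% higher, and of those without it 3.46% were lower and 11.5% higher.

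The number of matches followed the same order up to 2. Sites with 1 match were called lower in 9.73% of 1315 cases and higher in 3.95%, with a median log2 fold change of -0.15. Sites with 2 matches were called lower in 24.0% of 183 cases (18.0 to 30.9) and higher in 0.546% (0.0138 to 3.01), with a median of -0.49. The 30 sites with at least 3 matches did not extend the order, with 16.7% lower (5.64 to 34.7), 6.67% higher and a median of -0.06.

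**Figure D1:**
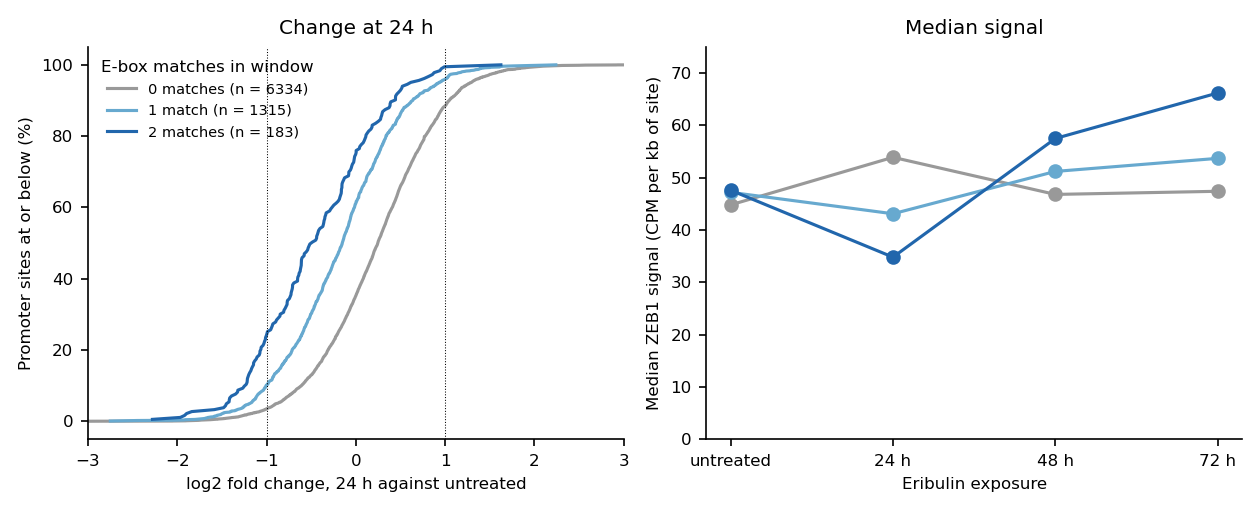
Promoter sites grouped by the number of ZEB1 E-box matches in the window. Left, cumulative share of sites (%) against the log2 fold change of 24 h over untreated, with dotted lines at the 2-fold limits; the curve for 2 matches lies to the left of that for 1 match, and that to the left of the curve for 0 matches. Right, median signal in CPM per kb of site in each condition (2 pooled libraries each); at 2 matches it is 47.6 untreated and 34.8, 57.5 and 66.2 after 24, 48 and 72 h.

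The split was seen across signal levels, GC content and chromosomes. With promoter sites in 5 equal bins of signal per kb, the medians were -0.01 with CAGGTG and 0.32 without in the lowest bin, and -0.42 and 0.02 in the highest. In the highest bin 18.7% of sites with CAGGTG were called lower and 4.86% of those without. In 3 equal bins of window GC content the medians with CAGGTG were -0.26, -0.15 and -0.16, and those without were 0.20, 0.22 and 0.32. Windows on chromosome 8 were not used here, and on each of the 22 chromosomes with tested sites over windows the median was lower with CAGGTG than without, by 0.08 to 0.72 on the log2 scale.

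CAGGTA, the related ZEB1 site, was split the same way, while E-boxes of other factors were split less or not at all. CAGGTA was in 15.9% of promoter sites called lower and 2.93% of those called higher, and sites with CAGGTA but no CAGGTG had a median of -0.12. CACGTG, the E-box of MYC and of the clock factors, was in 11.4% of lower and 11.7% of higher sites. CAGCTG, the E-box of muscle and neuronal basic helix-loop-helix factors, was in 19.7% and 17.6%, and CATCTG in 13.9% and 7.91%. GTGGAC, which holds the letters of CAGGTG in reverse order and served as a comparison of equal composition, was in 13.1% of lower and 7.4% of higher sites. In promoter windows counted without assignment to a site, the AP-1 sequence TGANTCA was in 8.01% of windows over lower sites and 4.34% over higher sites, against 6.15% of all windows and 4.89% of those over a tested site. The cAMP response element TGACGTCA was in 1.44% and 6.1%, against 2.26% and 3.57%.

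The deposited peak lists gave the same order. Of 6345 control peaks over a promoter window without CAGGTG, 85.9% overlapped a 24 h peak (85 to 86.7). The share was 79.9% of 1335 with 1 match (77.7 to 82.0) and 69.2% of 201 with 2 or more (62.3 to 75.5), although the median fold enrichment of the control peaks, 10.8, 12 and 11.1, was no lower with matches than without. In 3 equal bins of enrichment, 47.9% of the weakest peaks were kept with CAGGTG and 66.5% without it, and 97.4% and 99.1% of the strongest. The peaks and the counts come from the same libraries.

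On the CPM scale, signal at promoter sites with CAGGTG was lowest at 24 h among the 4 conditions. The later times were not put on the background scale, where this order could differ. In replicate 1, total counts per unit of background floor were 49.03% of the untreated value at 24 h. They were 37.49% at 48 h and 35.65% at 72 h. Per kb of site the median CPM with CAGGTG was 47.5 and 48.1 in the untreated libraries and 42.0 and 41.5 in the 24 h libraries. It was 51.9 in the pooled 48 h and 55.2 in the pooled 72 h libraries. Without CAGGTG it was 44.9 and 44.8 untreated and 54.2 and 53.9 at 24 h, and the pooled later libraries had 46.8 (48 h) and 47.4 (72 h). The medians of the 2 untreated libraries lay close together, as did those of the 2 at 24 h, and these 2 conditions did not overlap in either group. Over all tested sites 7.03% were called lower and 9.95% higher at 48 h against 24 h, a comparison that shares the 24 h libraries. Of promoter sites with CAGGTG 0.654% were lower and 10.1% higher in it, and of those without it 5.05% were lower and 1.77% higher. At 2 matches 26.2% were higher and 0 of 183 lower.

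LCN2, which encodes a siderophore-binding secreted lipocalin, had the lowest p of the promoter sites with 2 matches. The site chr9:128149021-128149653 covers the printed window, with 250 and 251 CPM in the untreated libraries and 70.3 and 62.0 at 24 h (log2 fold change -1.92, adjusted p = 3.15e-74). It was 73.7 at 48 h and 199 at 72 h. The LCN2 site was near its 24 h level at 48 h (log2 0.15 against 24 h, adjusted p = 0.414).

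MARK2, a kinase of cell polarity that phosphorylates microtubule-associated proteins, had 89.5 and 86.7 CPM untreated and 17.4 and 18.9 at 24 h (log2 fold change -2.28, adjusted p = 3.15e-41). Its 2 matches stand close together in the printed window, in opposite orientation. TMEM184A had 114 and 122 CPM untreated, 28.7 and 34.5 at 24 h and 93.6 at 48 h (log2 fold change -1.90). ACTR1B, a subunit of the dynein cofactor dynactin, had 130 and 139 CPM untreated, 59.0 and 57.6 at 24 h and 117 at 48 h (log2 fold change -1.20). In each of these the untreated and 24 h libraries were far apart.

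Among windows with 3 matches, BCAS4 had 78.5 and 81.8 CPM untreated, 29.8 and 28.0 at 24 h and 84.8 at 48 h (log2 fold change -1.47). PTPN6, the tyrosine phosphatase SHP-1, went from 44.3 and 36.9 to 10.3 and 11.9 (-1.88). COG5, a subunit of a Golgi tethering complex, went from 44.3 and 41.2 to 15.4 and 15.6 (-1.46). BAIAP2L1, a membrane-bending actin regulator, went from 66.3 and 60.4 to 21.6 and 28.0 (-1.36). FA2H, fatty acid 2-hydroxylase, went from 23.5 and 17.8 to 10.3 and 7.54 (-1.21). These are the 5 sites called lower among the 30. The 2 called higher were LOC124904094, from 5.5 and 5.61 to 12.3 and 12.4, and ADAP1, from 2.32 and 1.32 to 5.13 and 3.77, both among the weaker sites.

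The ZEB1 gene itself had 5 tested linked sites, none of them called. At its promoter, the site chr10:31318227-31319092 had 75.9 and 70.9 CPM untreated and 54.4 and 49.0 at 24 h (log2 fold change -0.51, 95% interval -0.75 to -0.26). The neighbouring site chr10:31319218-31319561, just after the printed window, had 26.6 and 36.9 untreated and 15.4 and 21.0 at 24 h (-0.79, -1.21 to -0.39). Both were under 2-fold, with adjusted p of 8.89e-05 and 1.42e-04. They stood at 112 and 37.8 CPM after 48 h and 141 and 48.3 CPM after 72 h, above the untreated level on the CPM scale. Against 24 h both were called higher at 48 h (log2 1.11 and 1.06). The window assigned to the latter site holds 3 CAGGTG matches, 2 of them in the printed part, which lies outside that site. That site would pass the 2-fold limit without untreated replicate 1 or without 24 h replicate 2, at -1.05 in either case. The absence of calls depends on the scale: on the background scale both promoter sites (-1.44 and -1.73) and 2 others (-1.45 and -1.88) were called lower. The last of these, chr10:31554581-31554845, was also called with low-count scaling (-1.07) and without untreated replicate 1 (-1.04) or 24 h replicate 2 (-1.14).

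Epithelial genes known as ZEB1 targets had 93 tested linked sites, of which 20 (21.5%) were called lower and 6 (6.45%) higher, with a median log2 fold change of -0.36 beside 0.02 over all tested sites. Restricted to links of at most 5 kb, 9 were lower and 1 higher. Here and below, the strongest site of a gene is the one with the smallest p. CDH1 had 6 sites, and its strongest, 4558 bases into the gene (chr16:68741850-68742072), went from 26.4 and 24.4 CPM to 7.7 and 4.31 (log2 fold change -2.06, adjusted p = 7.22e-13). The site just before the start of CDH1 (chr16:68737140-68737292) had 1.16 and 0.66 CPM untreated and 2.05 and 2.69 at 24 h and was not called. A weak CDH1 site (chr16:68756343-68756483) went the other way, from 2.61 and 1.32 to 4.62 and 4.85, and its call rested on single libraries: it ended with DESeq2 (1.24), and without untreated replicate 2 (0.81), 24 h replicate 1 (1.26) or 24 h replicate 2 (1.16).

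CLDN4, a claudin of tight junctions, had a promoter site that went from 50.4 and 47.8 CPM to 22.6 and 23.7 (log2 fold change -1.09) and stood at 49.6 at 48 h. TJP3, the junction scaffold ZO-3, went from 25.8 and 29.0 to 7.18 and 5.93 at its promoter (-2.04). CDS1, a phospholipid synthesis enzyme, went from 37.1 and 44.9 to 17.4 and 17.2 (-1.23). These are the 3 promoter sites called lower among 11 on windows of this list, none of which was called higher. The E-box did not sort these few sites: the assigned windows of CLDN4 and TJP3 hold no CAGGTG, while MAP7 with 2 matches and PATJ with 3 had log2 fold changes of 0.11 and 0.22 and were not called.

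SPINT2, an inhibitor of epithelial serine proteases, had the smallest p of the list, from 103 and 99.3 CPM to 46.2 and 44.2 (log2 fold change -1.16). EPCAM, the epithelial cell adhesion molecule, had a site lower 69421 bases from the gene, from 29.8 and 27.0 to 8.21 and 7.54, and a site higher 8078 bases from the gene, from 12.7 and 9.89 to 35.4 and 30.7, a call that ended on the background scale (log2 0.60). The microRNA-200 cluster on chromosome 1 suppresses ZEB1 and is repressed by it. Its 2 tested sites had log2 fold changes of -0.62 (-1.37 to 0.08) and 0.03 (-0.51 to 0.55), and neither was called, but on the background scale the former was (-1.55). VIM, the mesenchymal filament vimentin, had 36.2 and 34.6 CPM untreated and 55.4 and 57.1 at 24 h at its promoter (0.66, not called). Its 3 sites just beyond the gene were called lower, the strongest from 27.2 and 29.0 to 10.8 and 10.2 (-1.41), and 2 of the 3 were not called with DESeq2 (-1.35 and -1.89). The former also lost its call without 24 h replicate 2 (-0.69).

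**Figure D2:**
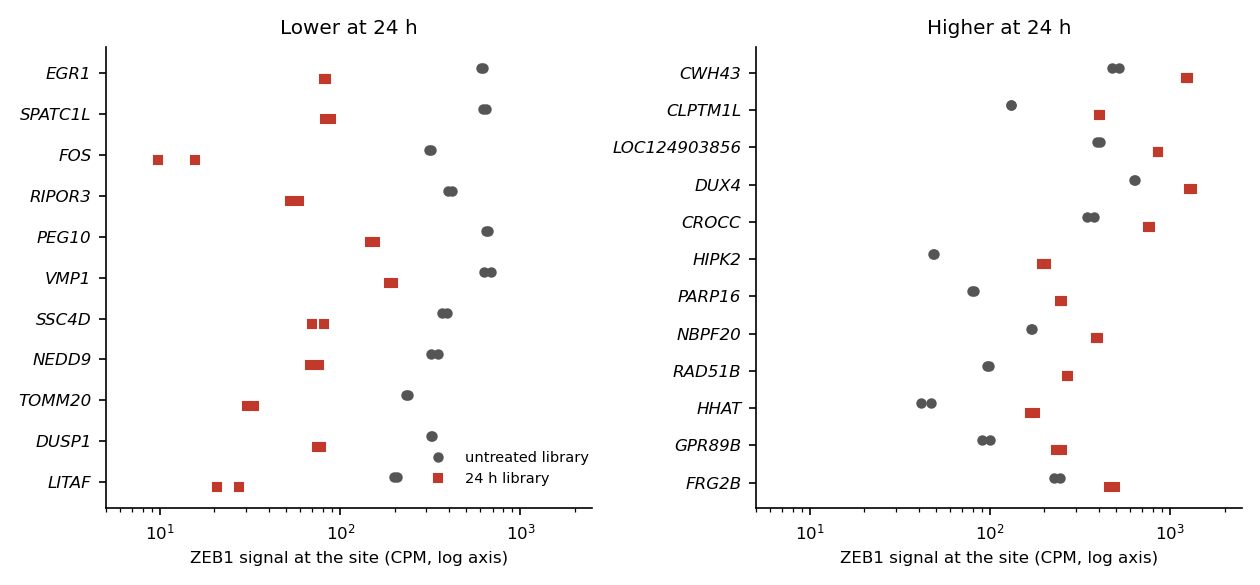
Signal in each library (CPM, log axis) at the sites with the smallest p, 11 lower and 12 higher, 1 site per linked gene; circles are untreated and squares 24 h libraries. The libraries of a condition lie close together and the conditions do not overlap at any site drawn, which were chosen to show this; FOS has the widest gap, from 309 and 319 to 9.75 and 15.6.

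Immediate early genes, the transcription factor genes that growth signals switch on first, held the site with the smallest p of all. EGR1 had 623 and 603 CPM untreated and 81.1 and 83.0 at 24 h over a site that begins 95 bases past the gene (chr5:138469398-138471440, log2 fold change -2.90, adjusted p = 4.74e-146). It was 162 at 48 h and 179 at 72 h. FOS, a subunit of AP-1, had 309 and 319 untreated, 9.75 and 15.6 at 24 h and 67.6 at 48 h, over a site 1132 bases past the gene (-4.63).

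Of 218 sites linked to 32 immediate early genes, 71 (32.6%) were called lower and 11 (5.05%) higher, against 13.5% and 14.8% of all tested sites. Restricted to links of at most 5 kb, 38 were lower and 5 higher. Lower sites were spread over 21 of the genes. KLF6 had 10, FOS and KLF10 had 8 each and ATF3 had 6. NR4A1, an orphan nuclear receptor, had a site that went from 66.0 and 61.0 CPM to 1.54 and 4.85, and CCN2, a matricellular growth factor, from 79.4 and 77.5 to 6.16 and 7.0. IER5 stood apart with 4 higher sites and none lower.

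DUSP1, a phosphatase that switches off MAP kinases, had 11 sites called lower and 1 higher. Its strongest went from 320 and 321 CPM to 78.5 and 73.8, 2028 bases past the gene (log2 fold change -2.07). Over 213 sites at the 28 MAP kinase feedback genes with sites, 51 (23.9%) were lower and 22 (10.3%) higher. The list was not uniform. DUSP5 had 8 lower and no higher sites and ERRFI1, an inhibitor of the EGF receptor, had 7 and none, while DUSP10 had 6 higher and none lower, the strongest from 1.16 and 0.99 to 24.6 and 20.5.

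SRF and its cofactors of the MRTF family switch on actin cytoskeleton genes. Their targets had 41 of 153 sites lower (26.8%) and 9 higher (5.88%), but with links of at most 5 kb 10 of 61 were lower and 5 higher. MYH9, the heavy chain of non-muscle myosin, held 13 of the lower sites among 19 linked to it. ACTN4, an actin crosslinker, went from 198 and 209 CPM to 88.3 and 92.1 at its strongest called site. CORO1C, an actin-binding coronin, ran the other way at its promoter, from 33.9 and 33.3 to 98.5 and 88.9 (log2 fold change 1.48, and 0.54 on the background scale, where it was not called).

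Circadian clock genes (27 and 10 of 100 sites) and cholesterol genes (23 and 4 of 87) also had more lower than higher calls. So did hypoxia and glycolysis genes (27 and 13 of 158) and caveola genes (13 and 3 of 60). In that order the lower shares were 27.0%, 26.4%, 17.1% and 21.7%, beside 13.5% of all tested sites. The median log2 fold changes were -0.35, -0.02, -0.29 and -0.37. With links of at most 5 kb they were -0.49, -0.20, -0.22 and -0.16. DDIT4, a stress-induced inhibitor of mTOR, went from 187 and 187 CPM to 33.4 and 31.8, and LDHA, lactate dehydrogenase, from 39.7 and 40.2 to 5.64 and 7.54. VDR, the vitamin D receptor, went from 23.2 and 22.1 to 2.57 and 2.16. BMAL1, a core clock activator, had its strongest called site higher, from 34.8 and 39.6 to 98.5 and 103, and was not called on the background scale (log2 0.51). Of the 8 caveola sites at PACSIN2 that were called, all were lower.

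Over all tested sites 13.5% were lower and 14.8% higher. Nuclear receptor genes lay near these shares, with 14 lower (14.7%) and 16 higher (16.8%) of 95 sites. NF-kappaB genes had 30 lower (17.8%) and 24 higher (14.2%) of 169. Ribosomal protein genes had 23 lower (14.8%) of 155 sites, near the share of all sites, but 14 higher (9.03%), below it. Heat shock genes had few calls, 8 lower (10.4%) and 4 higher (5.19%) of 77. Unfolded protein response genes had 15 lower (17.0%) and 8 higher (9.09%) of 88.

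Lists with more higher than lower calls included neuronal, olfactory and histone genes. Of 28 sites at long neuronal adhesion genes, 13 (46.4%) were higher and 1 lower, with a median log2 fold change of 0.91 that became -0.02 on the background scale. Of 65 at olfactory receptor genes, 19 (29.2%) were higher and 4 lower (median 0.60, and -0.32 on that scale). These counts rest on distant links: with links of at most 5 kb 2 of 6 neuronal sites were higher and 1 lower (median 0.16), and 2 of 14 olfactory sites were higher and none lower, with a median of -0.10. Of 83 at replication-dependent histone genes, 16 (19.3%) were higher and 4 lower (0.48, and -0.46 on that scale), and within 5 kb 5 of 51 were higher and 2 lower. CDH13, an atypical cadherin, went from 5.5 and 6.93 CPM to 34.4 and 39.9, and the site near H4C8, a histone H4 gene, from 19.4 and 19.1 to 82.1 and 75.4. Zinc finger genes had 39 higher (11.5%) and 23 lower of 338 sites on chromosome 19, and 65 (12.8%) and 39 of 507 elsewhere, and kinetochore genes 6 (10.5%) and 4 of 57. Those higher shares were below the 14.8% of all tested sites. The smallest lists were HOX genes, with 0 higher and 1 lower of 9 sites (HOXB1, not called with DESeq2, at -1.20, or without untreated replicate 2 or 24 h replicate 1, at -0.97 and -0.96), and clustered protocadherins, with 2 and 0 of 10. CENPE, a kinetochore motor that walks on microtubules, went from 2.9 and 1.32 to 19.5 and 21.0.

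**Figure D3:**
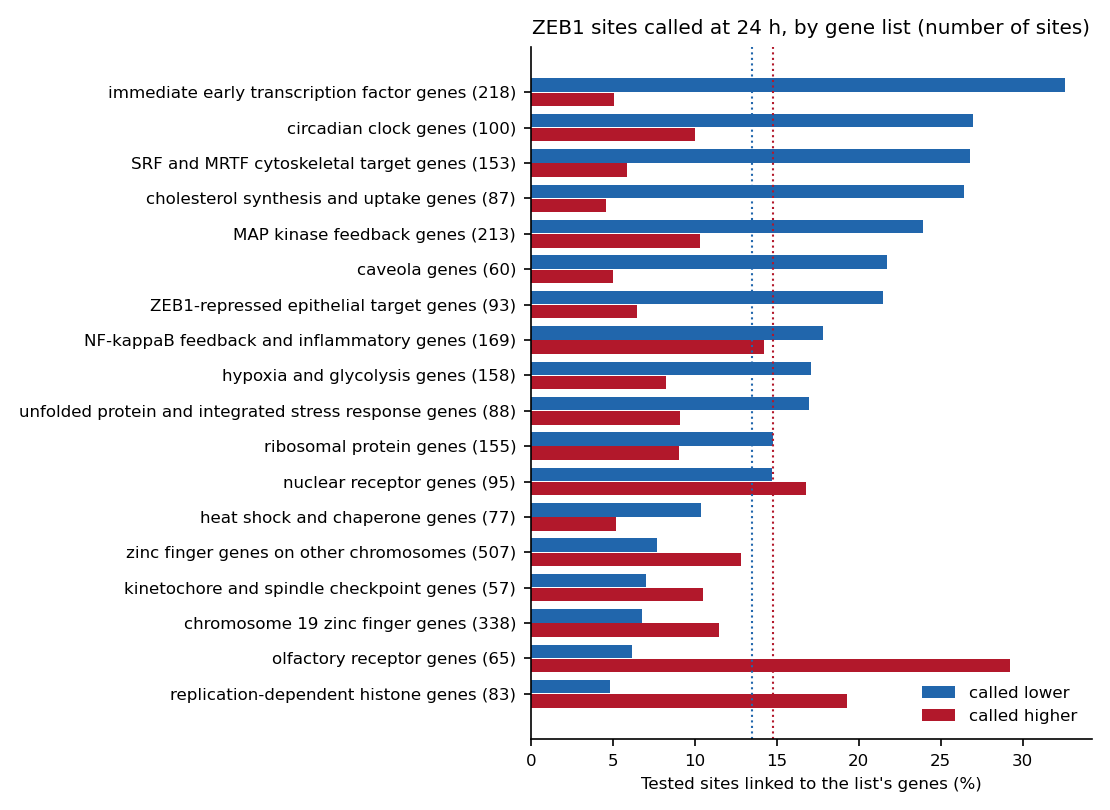
Share of tested sites (%) called lower and called higher at 24 h for each gene list with at least 50 linked sites, with the number of sites in parentheses; dotted lines mark the shares over all tested sites, 13.5% lower and 14.8% higher. Immediate early genes have the largest lower share, 32.6%, and olfactory receptor genes the largest higher share of those drawn, 29.2%.

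Some genes had many linked sites called lower and none higher, and those named here as lower were picked by that rule. Of the 14674 genes with a linked tested site, 384 had at least 3 sites called lower and none higher, 217 had the reverse, and 765 had sites called in both directions. NEDD9, a focal adhesion scaffold that promotes cell migration, had 16 lower sites of 23, which together span 228 kb. The signal of all 23 linked sites summed to 1558 and 1641 CPM in the untreated libraries and to 563 and 571 at 24 h. RIPOR3 had 10 of 11 sites lower, and its sum went from 1051 and 1088 to 182 and 219. BHLHE40, a basic helix-loop-helix repressor of the clock and of hypoxia responses, had 10 of 12, and its sum went from 1447 and 1483 to 507 and 508.

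TOMM20, the mitochondrial protein import receptor, was linked to 11 lower sites of 15, all of them outside the gene, while the site over its start had a log2 fold change of 0.19. The strongest went from 237 and 233 CPM to 33.4 and 30.2. The same direction was seen at MARCHF10 with 11 of 16, SHB with 11 of 27 and MCFD2 with 11 of 22. These links are by distance only, and several of the sites linked to MCFD2 lie inside TTC7A.

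**Figure D4:**
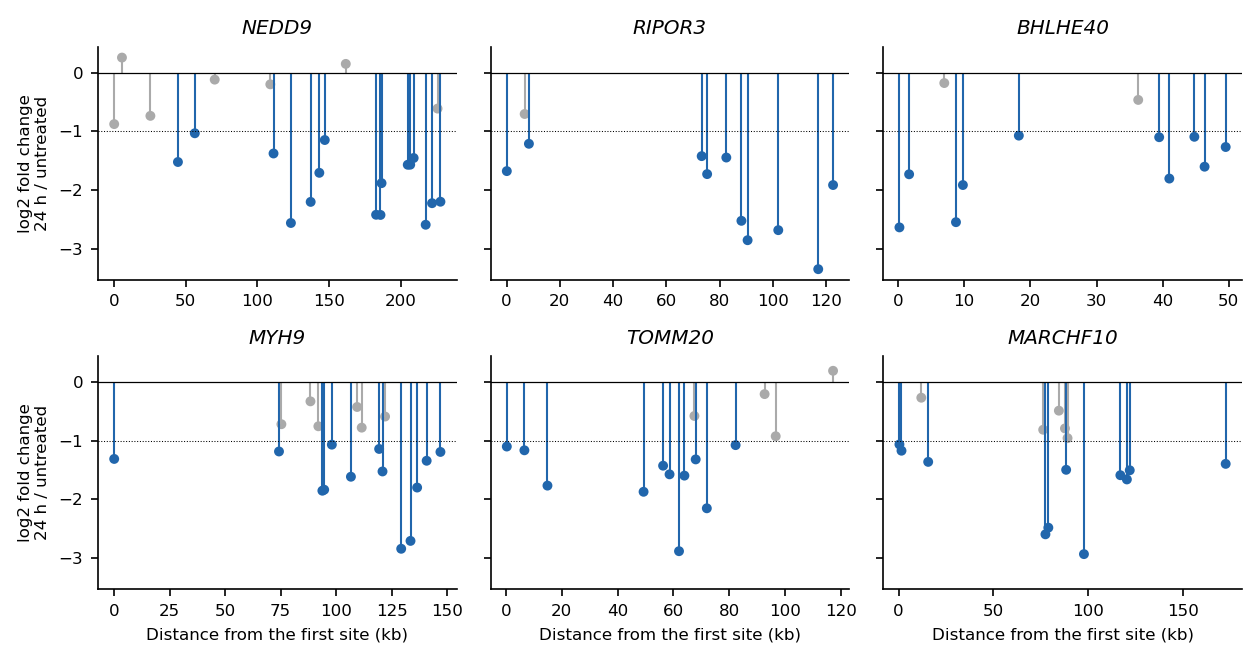
log2 fold change of 24 h over untreated at each tested site linked to 6 genes, against distance in kb from the first site of the locus; dark points are called lower, grey points are not called, and the dotted line marks 2-fold. At RIPOR3 10 of 11 sites and at NEDD9 16 of 23 lie at or below the line and were called.

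CWH43 was linked to the most higher sites, 39 of 41 sites near the centromere of chromosome 4, with a strongest site from 475 and 516 CPM to 1228 and 1246 (chr4:49148796-49150049, log2 fold change 1.32). TTC34 had 11 higher of 37 and MIR10396B, in the ribosomal DNA of chromosome 21, 9 of 13. Also among the 8 genes with the most higher sites were LOC124902048 (10 of 17), LOC101929601 (8 of 12), MAMDC2 (7 of 14), CFAP54 (7 of 10) and NT5E. Further strong higher sites lay at DUX4 in the D4Z4 repeat (637 and 629 to 1271 and 1312), FRG2B, NBPF20, GPR89B, CROCC and LOC124903856. Repeats were not annotated here, but ribosomal DNA, D4Z4 and the NBPF family exist as near-identical copies that can share reads, so which copy gained signal is uncertain. The calls at DUX4, FRG2B, CROCC and LOC124903856 ended under the low-count scaling (0.90, 0.89, 0.95 and 0.98) and with an assumed variation between cultures (1.0, 0.99, 1.05 and 1.08). For 3 of these they also ended without 1 library: DUX4 without untreated or 24 h replicate 2 (both 0.99), FRG2B without untreated or 24 h replicate 1 (0.93 and 0.98) and CROCC without untreated replicate 1 (0.98). On the background scale CWH43 (0.39), NBPF20 (0.26) and GPR89B (0.41) lost theirs.

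CLPTM1L had a site inside the gene that went from 130 and 130 CPM to 406 and 401 (chr5:1327045-1328496, log2 fold change 1.64) and fell back to 299 at 48 h and 164 at 72 h. HIPK2, a nuclear kinase of the stress response, went from 48.1 and 48.5 to 195 and 204 (2.04). HHAT, which attaches palmitate to hedgehog proteins, went from 41.1 and 46.8 to 166 and 178 (1.97), and the site linked to PARP16 from 78.8 and 81.5 to 250 and 245 (1.63). NT5E, the ecto-enzyme CD73, had 7 of 8 sites higher, with a sum from 40 and 47.8 to 138 and 141. RAD51B was higher at 24 h (98.8 and 95.3 to 269 and 267) and reached 485 at 72 h.

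On the background scale the log2 fold change was 0.70 at CLPTM1L, 0.69 at PARP16 and 0.53 at RAD51B, and these 3 calls ended. The 10 sites with the most untreated signal per kb did not differ by 2-fold: 9 lie in ribosomal DNA on chromosome 21 and 1 in HFM1, with log2 fold changes of -0.09 to 0.19. On the background scale HFM1 passed 2-fold (-1.03) and the ribosomal DNA sites were at -0.997 to -0.747.

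Away from immediate early genes, strong losses included PEG10, an imprinted gene derived from a retrotransposon, with 647 and 663 CPM untreated and 146 and 155 at 24 h, with pooled values of 478 (48 h) and 617 (72 h). The site 10 bases past VMP1, an autophagy gene whose last part holds the microRNA gene MIR21, went from 630 and 690 to 185 and 197. LITAF went from 206 and 198 to 20.5 and 27.5 inside the gene. At 48 h against 24 h, a comparison that reuses the 24 h values by which the sites were chosen, 9.95% of all tested sites were called higher and 7.03% lower. Of the 12 sites with the smallest p among the lower ones 9 were called higher and none lower, and of the 12 among the higher ones 2 were called higher and none lower.

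At promoters, SPATC1L had the largest loss of those named, from 622 and 641 CPM to 88.3 and 82.4 (log2 fold change -2.88, adjusted p = 1.39e-141). It was 560 at 48 h and 860 at 72 h. Since its window is a tandem repeat, its level may also depend on how the reads of repeat units were placed, which was not examined. BHLHE40 went from 271 and 291 to 85.2 and 83.5, GSK3A, a kinase of glycogen metabolism and Wnt signalling, from 253 and 248 to 82.1 and 81.9, and SPATA2L from 211 and 220 to 66.2 and 62.5. The printed-length windows of these 3 hold no CAGGTG or CAGGTA, so the E-box was present at some and absent at other strong promoter losses. CCDC163 and MMACHC share a divergent promoter with a CAGGTA, which went from 261 and 288 to 79.0 and 83.5, and SLC25A45, with a CAGGTG in each of 2 windows, from 309 and 300 to 129 and 120.

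Promoter sites named as higher were lower again by 48 h. TARS1, threonyl-tRNA synthetase, went from 59.7 and 63.7 CPM to 145 and 163 and was 85.2 at 48 h (log2 fold change 1.32). KLF16, a zinc finger factor of GC-rich promoters, went from 16.2 and 21.1 to 70.8 and 77.6 and was 23.7 at 48 h (2.00). ATG4C, a protease of autophagosome formation, went from 15.1 and 13.2 to 70.3 and 64.1 (2.24), and its upstream window is the only one with a CAGGTG among those of the 8 promoter sites named as higher. At 48 h against 24 h all 8 had an adjusted p under 0.05 with a lower value, and 3 of them passed 2-fold. That comparison reuses the 24 h values by which the sites were chosen, which favours a lower value here. Over all tested sites 7.03% were called lower and 9.95% higher in it. Of the 8 promoter sites named as lower, 7 had an adjusted p under 0.05 with a higher value at 48 h. Of the same 8, 3 were called higher and none lower, and here the reuse favours a higher value. On the background scale TARS1 was at 0.39, EEPD1 at 0.86, ANKRD10 at 0.46, CORO1C at 0.54, MCCC1 at 0.38 and FBXL12 at 0.15, and those 6 calls ended. FBXL12 also lost its call without untreated replicate 1 (0.99).

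Calls varied with the distance from the gene start. Among sites linked to a gene with a known start, 5.53% of those within 1 kb before the start were lower and 10.3% higher. Between 1 and 5 kb after the start 21.0% were lower and 9.55% higher, with a median log2 fold change of -0.31, and between 5 and 20 kb after it 18.8% and 11.3%. Sites 20 to 100 kb before the start were the reverse, with 13.9% lower and 19% higher. Width moved with these calls: in 5 bins of site width, 25.5% of the narrowest sites were higher but 7.16% of the widest, and its part in the result was not tested.

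**Figure D5:**
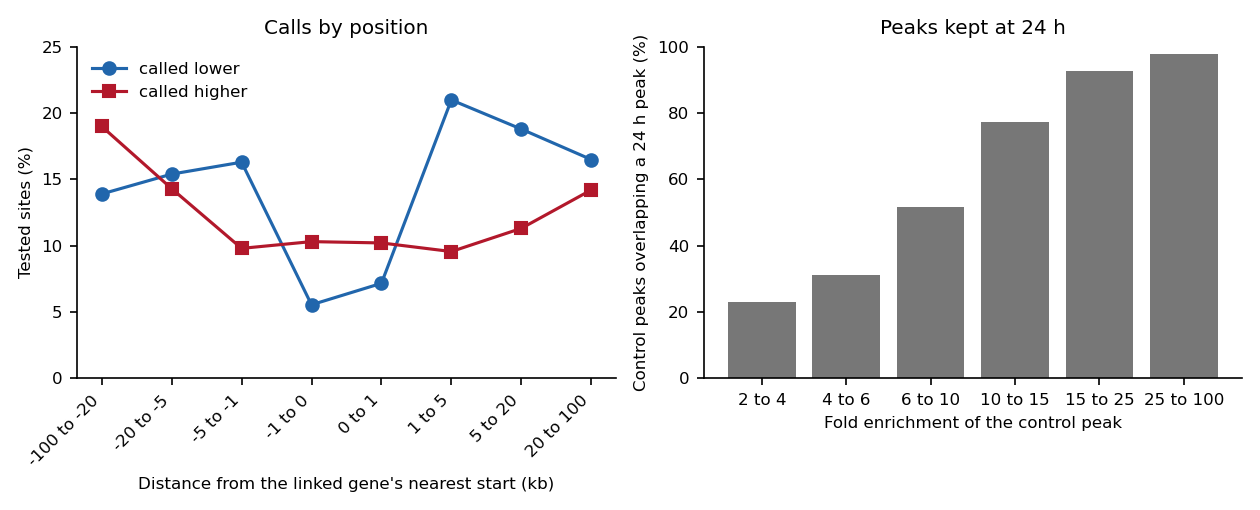
Left, share of tested sites (%) called lower and called higher by the distance in kb of the site's middle from the nearest start of its linked gene, negative before the start; the lower share is 5.53% in the kb before the start and 21.0% from 1 to 5 kb after it. Right, share of control peaks (%) that overlap a 24 h peak by the authors' fold enrichment of the control peak, from 23.1% at 2 to 4 up to 97.9% at 25 to 100.

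Chromosomes differed as well. On chromosome 22, 25.3% of sites were lower and 7.52% higher (median log2 fold change -0.44), and on chromosome 17, 19.5% and 7.33% (-0.27). On chromosome 4, 6.28% were lower and 27.9% higher (0.46), and on chromosome 13, 8.41% and 22.9% (0.32). Chromosome 21 had 20.3% lower, a larger share than chromosome 17, and 15.4% higher (-0.19). Chromosomes 22 and 17 are rich in genes and chromosomes 4 and 13 poor in them, but a relation of the calls to gene density was not tested.

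Untreated peaks without a 24 h peak were weaker than those with one. Fold enrichment and q here are the authors' values. The untreated list held 46483 peaks and the 24 h list 33466. Untreated peaks with a 24 h peak had a median enrichment of 11.0, a width of 301 bases and a summit of 30 fragments, and the 18175 without one had 6.96, 161 bases and 16 fragments. The kept share rose with enrichment, from 23.1% at 2 to 4-fold to 97.9% at 25 to 100-fold. The 4810 peaks at 24 h without an untreated peak were weaker still, with a median enrichment of 5.99, 134 bases and 12 fragments. All 24 h peaks had medians of 7.86 and 18 fragments, against 9.12 and 23 for all untreated peaks.

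A lost peak was often not a called loss of signal. Of 13069 tested sites with a peak in the untreated list but not in the 24 h list, 33.8% were called lower and 65.4% were not called. Of 3787 with a peak in the 24 h list only, 84.6% were called higher. The median pooled counts of a tested site were 82 untreated and 50 at 24 h, and the part of depth in these shares was not tested. Of 27680 with a peak in both, 6.67% were lower and 11.7% higher.

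The strongest untreated peaks without a 24 h peak were called lower in the counts. Peaks and counts come from the same libraries, so the calls at lost and new peaks are not independent of the lists. Those reported here lay inside PHACTR4, INTS11, MAP3K5 and PTPRE, with enrichments of 25 to 28.3. The site inside PHACTR4, a regulator of actin and protein phosphatase 1, went from 39.4 and 35.0 CPM to 10.3 and 8.08. The site inside MAP3K5, a stress-activated kinase of the MAP kinase cascade, went from 27.2 and 21.1 to 5.13 and 5.39. Of the 5 strongest new peaks, with enrichments of 15.5 to 16.8, 4 were called higher. QRICH1 held the clearest of them inside a gene, from 3.48 and 0.99 to 7.7 and 11.3, while SLF2 was not called, at 6.08 and 2.31 untreated and 7.18 and 6.47 at 24 h.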

How the data were processed

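Per the labels, ZEB1 CUT&RUN libraries were made with a commercial kit and an anti-ZEB1 antibody. The submitters' processing notes list MACS2 2.1.1, featureCounts, Bowtie2 2.2.6 and the hg38 build among the tools, without roles or order. The deposited count table holds counts per consensus site, with no normalization, of reads or of fragments (the labels do not say which). The deposited peak lists give a fold enrichment (a ratio) and −log10 p and q values per peak, 1 list per condition. Summit heights and the background floor were recovered from these fold and p columns.

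Counts were fitted with edgeR 4.0.16 (R 4.3.3; TMM, filterByExpr, quasi-likelihood, all 8 ZEB1 libraries, condition as the only term), with Benjamini-Hochberg adjustment over 46436 sites. The fit was also run on simulated counts with counting noise only, which cannot check it for variation between cultures. DESeq2 1.42.0 and other scalings were alternatives. Because the 2 libraries of each condition differed by less than sampling noise, an alternative pooled them and assumed a coefficient of variation of 0.2 between cultures. The edgeR dispersion, a coefficient of variation of 0.00988, is that of counting noise. The labels do not say that libraries came from separate cultures, so p-values measure technical spread. Site intervals (95%) come from an exact binomial split of each site's pooled counts.

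A site's linked gene is the coding or microRNA gene whose end is closest, at most 100 kb away (88.4% of tested sites), from RefSeq GRCh38.p14, and promoter windows and sequences came from the same release. Windows used for sequence matches left out chromosome 8. Sequence outside promoter windows was not analysed here. Overlaps (bedtools 2.31.1) counted any shared base. The members and the 21 gene lists were chosen with earlier results of these data known, and the E-box split was chosen after site values were seen, so neither is independent evidence. Sites were named by rules: per direction the 12 called sites with the smallest p, the 10 densest sites, the 8 genes with the most sites called in a single direction, the site of smallest p per list and direction, the 8 promoter sites of smallest p per direction, the 5 strongest lost and gained peaks, and the CDH1, ZEB1, ZEB2, VIM and microRNA-200 sites. Windows with several E-boxes, list members and further sites were named after their values were seen. Replicate numbers pair no samples: across conditions, the correlations of the differences between same-numbered libraries were -0.004 to 0.013. A few sites that these rules name are not reported here.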

Additional observations from a re-analysis of the deposited data

Results flagged for a closer look

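The 24 h peak list held 383 peaks on unplaced contigs, 1.14% of the list, against 333, or 0.716%, in the untreated list. They drew attention because the count table leaves these contigs out, so no site comparison covers them. Their median fold enrichment, as the authors give it, was 5.92 at 24 h and 5.99 in the untreated list, against 7.87 and 9.14 on chromosomes. No test was made of this difference.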

How the results depend on the processing

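A left-out library leaves its arm with 1 library, assumed to vary like the others. The counts of 6282 lower and 6893 higher sites moved most with the scale: 21305 and 1555 with the background floor. With the pooled pairs and an assumed variation of 0.2 between cultures they were 3633 and 3833. DESeq2 gave 4627 and 4992, low-count scaling, which lowered the median by 0.124, 7716 and 5759, library totals 5371 and 7943, and the fit with a replicate block 6278 and 6900; with a library left out they were 6176 to 6517 and 6449 to 6699. With the replicate block the E-box difference was -0.423 and no call of a named site changed; the numbers do not pair samples. Control peaks with a 24 h peak (60.9%) came to 72.1% in lists of equal length and 50.7% with an overlap of 50%. The reverse share (85.6%) came to 73.4% and 82.4%, and 86.3% at q under 0.001.

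Sites that changed sign were not called, and their cause was not tested. With the background floor the ribosomal DNA sites, by start on chromosome 21, were -0.857 (8400523), -0.848 (8209654), -0.86 (8392674), -0.748 (8441184), -0.89 (8436982), -0.747 (8217509), -0.819 (8442402) and -0.808 (8398249). The VIM sites were -0.846, -0.271, -0.893 and -0.527, the ZEB1 site -0.657, the CDH1 site -0.785, the MIR200B site -0.906 and the median of promoter sites without CAGGTG -0.688. With low-count scaling they were -0.0446, -0.036, -0.0478, -0.0782 and -0.00703 in ribosomal DNA, -0.0974 at MIR200B, and -0.0349 and -0.0845 at VIM. Library totals put the site at 8254422 at 0.0333. With a library left out the ranges were -0.0198 to 0.12, -0.00882 to 0.103 and -0.0473 to 0.085 in ribosomal DNA, -0.0796 to 0.101 at MIR200B, -0.0241 to 0.161 and -0.283 to 0.311 at VIM, and -0.161 to 0.408 at CDH1. The pooled 24 h counts had a median of 50 per site against 82 untreated, and the part of depth at weak sites was not tested. The E-box settings were added after the data were seen.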
